A study of Homo sapiens with 42 samples.

Results

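The regions described here are stretches of open chromatin that were called in all 3 untreated samples of HCT116, a human colorectal cancer cell line, and in no untreated sample of 6 other cancer lines. A region was a run of at least 100 bp on chromosomes 1 to 22 and X that lay under a peak interval in each of the 3 DMSO samples of HCT116 and under no interval in the 18 DMSO samples of the other lines. Of 27865 HCT116 segments called in 3 of 3 DMSO samples, 255 met this rule, or 0.915%. The regions were chosen by their calls in DMSO samples, so those calls are given as a description and carry no test. The FHT-1015 samples played no part in the choice.

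The series held ATAC-seq peak lists of 42 samples, with 3 biological replicates of each line and treatment. The wild-type HCT116 cells were exposed for 4 h to DMSO, the negative control, or to FHT-1015, an inhibitor of both SMARCA4 and SMARCA2. The other lines were also labelled wild type and treated for the same time with either agent. They came from acute myeloid leukemia (MV411), rhabdomyosarcoma (RD), invasive breast carcinoma (DU4475), melanoma (A375), uveal melanoma (92-1) and prostate adenocarcinoma (22RV1). Each line stands for a tumour type through 1 established culture, and no normal colon cells were among the samples. The 6 HCT116 lists held 114291 to 313558 peaks, of which 17552 to 27364 had a −log10 q of at least 5 and are called strict peaks below. In HCT116 the list of FHT-1015 replicate 3 was the longest and had the fewest strict peaks, and that of DMSO replicate 1 was shorter than the lists of the other 2 DMSO samples.

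ATAC-seq marks DNA that a transposase can reach, which is mostly at promoters and enhancers. SMARCA4 and SMARCA2 are the alternative ATPases of BAF, a complex that slides and evicts nucleosomes and keeps many enhancers open. Enhancers differ between cell types more than promoters do, and in the intestinal epithelium factors such as CDX2, HNF4A and KLF5 are known to act through them. A call in a bulk sample cannot tell apart a smaller share of cells with an open site and a weaker opening in each cell.

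Of 11 colorectal marker genes, 7 (CDH1, EPCAM, KRT8, KRT18, CDX1, CDX2 and GPA33) had an interval within 1 kb of a gene end in all 3 HCT116 DMSO samples. LGR5 had one in 2 samples, CDH17 in 1, and KRT20 and VIL1, markers of differentiated enterocytes, in 0. The melanocyte factor SOX10 and the muscle factor MYOG had none. Intervals at MITF, PMEL, MYOD1, SPI1 and MPO in all 3 samples show that a call at a gene end in these lists does not by itself mark the lineage.

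Promoters under 6 regions were found among the 34961 promoter windows of RefSeq (GRCh38.p14), and the 250 bases upstream of the start are shown for 4 of them, each 5′ to 3′ on the strand of its gene. Capitals mark the bases that lie inside an HCT116-only region. CDX2 is shown because it is the intestinal master regulator and the only one of the chosen intestinal key genes with such a region. MACC1 is a regulator of growth and invasion named for its association with colon cancer metastasis, and its promoter region was called in every HCT116 sample. PPFIBP2, a liprin of cell contacts, is shown for a region with no call after FHT-1015. That region lay inside the gene, 59.3 kb from the nearest protein-coding gene end (CYB5R2), so this promoter window is not at an end of PPFIBP2. LOC105373640 is an uncharacterised RefSeq gene under the second strongest region.
CDX2, minus strand, chr13:27969316-27969565: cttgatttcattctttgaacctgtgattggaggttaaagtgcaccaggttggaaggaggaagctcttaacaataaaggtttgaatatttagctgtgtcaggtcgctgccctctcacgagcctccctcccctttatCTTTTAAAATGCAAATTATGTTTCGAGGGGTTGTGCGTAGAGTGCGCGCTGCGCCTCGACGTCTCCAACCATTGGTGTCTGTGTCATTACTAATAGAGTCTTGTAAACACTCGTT
MACC1, minus strand, chr7:20217385-20217634: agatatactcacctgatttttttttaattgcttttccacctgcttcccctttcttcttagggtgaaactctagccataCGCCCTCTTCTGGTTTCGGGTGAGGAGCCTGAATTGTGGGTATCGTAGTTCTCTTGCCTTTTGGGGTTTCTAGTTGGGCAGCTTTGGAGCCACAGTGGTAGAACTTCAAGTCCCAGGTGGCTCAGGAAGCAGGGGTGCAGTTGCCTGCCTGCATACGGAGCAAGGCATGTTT
PPFIBP2, plus strand, chr11:7605484-7605733: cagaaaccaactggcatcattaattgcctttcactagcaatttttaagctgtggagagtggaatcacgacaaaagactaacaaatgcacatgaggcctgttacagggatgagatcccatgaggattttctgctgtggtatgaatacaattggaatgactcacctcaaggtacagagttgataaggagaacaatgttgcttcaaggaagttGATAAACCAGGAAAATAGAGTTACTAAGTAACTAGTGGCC
LOC105373640, plus strand, chr2:138916975-138917224: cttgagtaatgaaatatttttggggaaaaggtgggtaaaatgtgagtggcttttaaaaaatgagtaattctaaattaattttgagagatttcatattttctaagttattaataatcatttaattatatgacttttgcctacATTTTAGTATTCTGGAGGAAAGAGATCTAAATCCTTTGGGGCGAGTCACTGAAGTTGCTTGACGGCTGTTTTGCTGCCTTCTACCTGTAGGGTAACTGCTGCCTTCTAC
The CDX2 region covered 115 of its 250 upstream bases, that of MACC1 172, that of PPFIBP2 40 and that of LOC105373640 109. On either strand, the CDX2 sequence held the letters TTTATNG of a CDX motif, which 8.93% of all promoters held over the same length, TGTTTAC of a forkhead motif (2.98%), AGATAA of a GATA motif (9.18%) and CCAAT of NF-Y (32%). The MACC1 sequence held TGNGGTT of a RUNX motif (11.2%) and TTCNNGA of a STAT motif (28.7%). The PPFIBP2 sequence held TGANTCA, the AP-1 motif (6.54%), GGAATG of TEAD (11.9%), CATTGT of SOX (9.25%), AGAACA of the androgen receptor motif (12.4%), and CCAAT. LOC105373640 held TTGCNNA of C/EBP (29%) and the STAT letters. GGAATG and TGANTCA share bases where the first runs into the second, as in the PPFIBP2 sequence. All matches in the PPFIBP2 sequence, the CDX match of CDX2 and the C/EBP match of LOC105373640 lay in lower case, outside the regions. The GATA letters of CDX2 crossed the edge of its region. These matches describe the letters only.

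HCT116 had by far the fewest regions of its own. The same rule gave 2817 regions in RD, 3331 in A375, 3442 in DU4475, 4910 in 92-1, 8122 in 22RV1 and 27817 in MV411, which was 6.12% to 25.1% of the segments of a line. HCT116 also had the fewest strict peaks, a mean of 24274.7 per DMSO sample against 35337.7 to 112752 in the other lines. The peak names of HCT116, 92-1, 22RV1 and MV411 carry the word small and those of the other 3 lines do not; its meaning is not stated, so numbers may not be comparable between these lines. The part of either in the small number of regions was not tested.

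**Figure D1:**
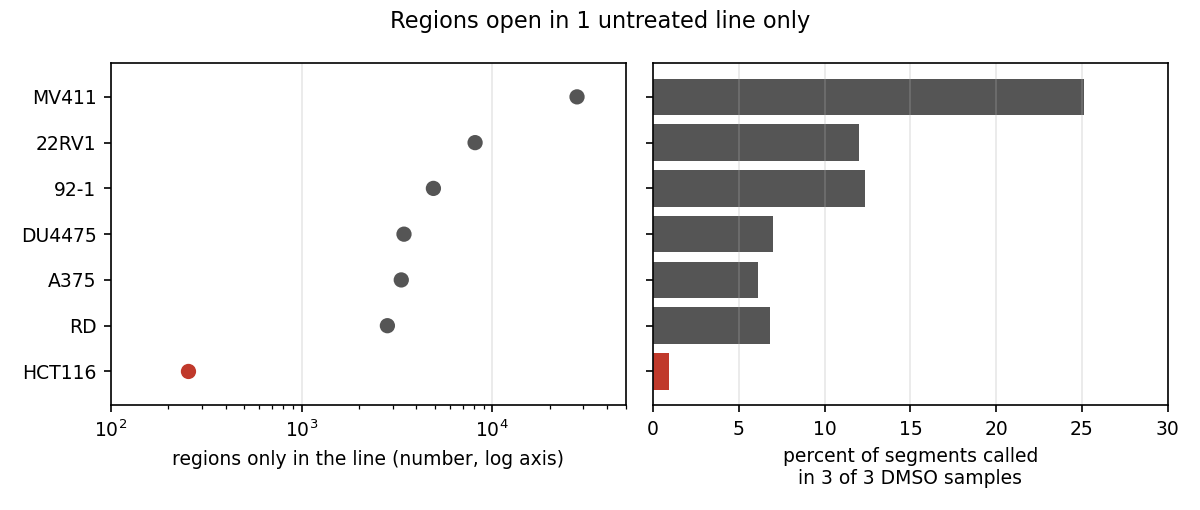
Number of regions called in 3 of 3 DMSO samples of 1 line and in no DMSO sample of the other 6 (left, log axis) and their share of all segments of the line called in 3 of 3 DMSO samples (right, bars from 0). HCT116, in red, has 255 regions, and the other lines have 2817 to 27817.

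The 255 regions sat at the end of a gradient of sharing. Of the other HCT116 segments, 869 were called in DMSO samples of exactly 1 other line and 14482 in those of all 6. A375 was the most frequent single partner, with 300 segments, and RD the least, with 47. The regions were narrow, with a median width of 158 bp and a range of 100 to 341 bp, against a median of 221 bp for shared segments. At the edge of the rule, 15 regions were under 110 bp wide, and 12 clear segments of 90 to 99 bp were left out. The nearest interval of another untreated line lay at a median distance of 315 bp and at most 4141 bp away. It lay within 500 bp of 168 regions and within 10 bp of 5, and 5 further segments were left out for an overlap of at most 10 bp.

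Most regions lay away from gene ends, as either end of a protein-coding gene is called here. Only 18 of 255 (7.06%, exact 95% interval 4.24 to 10.9%) lay within 1 kb of a gene end, against 37.7% of the shared HCT116 segments. In the regions specific to each other line the share was 1.28% to 3.34%. When the rule was applied to 2 HCT116 DMSO samples, leaving out each in turn, the HCT116 share was 2.36% to 3.26%, inside that range. The median distance to a gene end was 31.1 kb, against 6.70 kb for shared segments, and 59 regions lay more than 100 kb away. Inside a protein-coding gene lay 133 regions (52.2%), 38 lay only inside another RefSeq gene and 84 in no RefSeq gene. The regions were dispersed: the median distance to the next was 3020.79 kb, and 20 had another within 100 kb. Chromosomes 2, 3 and 6 held the most, with 28, 26 and 22, and chromosome 19 held 2, or 0.784% against 4.15% of shared segments.

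The regions were weak in the deposited lists. The fold enrichment of a peak over its background is given as in the authors' lists. Folds of different samples are set side by side below as a description only, because lists differ in scale. For shared segments with a call, the median fold was 8.57 in FHT-1015 replicate 2 and 6.72 in replicate 3. The median fold of the strongest peak on a region was 4.46, 4.55 and 4.55 in DMSO replicates 1, 2 and 3, against 6.77, 7.14 and 7.09 for shared segments. A fold of at least 5 in all 3 DMSO samples was found for 44 regions, and of at least 10 for 1 region. A −log10 q of at least 2 in all 3 was found for 148 regions, and of at least 5 for 29.

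The region with a fold of at least 10 in all 3 DMSO samples lay at chr4:180933790-180934058, 514 kb from TENM3, a teneurin of neuronal cell contacts. Its folds were 22.1, 24.2 and 14.3 with DMSO and 16.9, 17.6 and 9.35 with FHT-1015. It was called in every HCT116 sample, and the 2 groups overlapped. The next, chr2:138917116-138917332, covered the LOC105373640 promoter shown above, 137 kb from NXPH2. Its folds were 10, 11.0 and 9.93 with DMSO and 16.9, 9.09 and 6.06 with FHT-1015, which again overlapped. A region 29.9 kb from MT1HL1, a metallothionein-like gene, had 11.8, 6.69 and 10.1 with DMSO and 12.1, 7.59 and 8.97 with FHT-1015.

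The region at chr6:19417787-19417996, 419 kb from ID4, an inhibitor of basic helix-loop-helix factors, did not overlap between the groups. Its folds were 9.15, 9.02 and 12.7 with DMSO and 4.24, 6.02 and 5.31 with FHT-1015. Lists differ in scale and the depth of the samples is unknown, so such a gap between folds is not a test of the site. The share of the 255 regions with such a gap was not counted. Inside PRKCA, which encodes protein kinase C alpha, a region had 9.0, 7.72 and 9.73 with DMSO and 5.04, 11.0 and 5.52 with FHT-1015. The treated samples of the PRKCA region lay on both sides of the DMSO range.

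The region beside TMEM276-ZFTRAF1, 1.04 kb from its end, had 8.42, 10.2 and 6.19 with DMSO and 6.68, 13.0 and 3.38 with FHT-1015, a wider spread after treatment than before it. Inside GRID1, a glutamate receptor-like gene, the folds were 12.4, 7.14 and 6.62 with DMSO, and 5.08 and 3.94 in FHT-1015 replicates 1 and 2, with no call in replicate 3. Inside SPAG16, a gene of the sperm tail, they were 7.63, 7.75 and 6.62 with DMSO and 4.13 in FHT-1015 replicate 2, with no call in the other 2 treated samples. The rule required a call in all 3 DMSO samples, so a region could not have more calls after treatment. Of the 255 regions, 49 (19.2%) had a call in all 3 treated samples.

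Among the regions at gene ends was one at PIP5K1A, a lipid kinase that makes phosphatidylinositol bisphosphate. It lay 18 bp from the gene end and had folds of 6.15, 4.46 and 11.0 with DMSO and 8.97, 6.13 and 5.06 with FHT-1015, within the DMSO range.

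The CDX2 region, chr13:27969278-27969430, lay 39 bp from the gene end. Its folds were 5.15, 3.97 and 8.28 with DMSO and 4.90 and 5.19 in FHT-1015 replicates 1 and 2, with no call in replicate 3. The nearest interval of another untreated line was 377 bp away. Within 1 kb of an end of CDX2 an interval was called in all 3 DMSO samples of 22RV1, DU4475 and MV411 as well, so the stretch and not the gene end was specific to HCT116.

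The MACC1 region, chr7:20217339-20217556, had folds of 3.68, 6.49 and 5.76 with DMSO and 8.27, 9.46 and 5.23 with FHT-1015. It was called in all 6 samples, and the treated values were not below the DMSO range. A second region, chr7:20217795-20217934, lay 481 bp from the same end, with 6.62, 3.18 and 5.76 with DMSO and 4.00 in FHT-1015 replicate 3 alone. No treated sample of another line had a call on either of them.

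A further 6 regions at a gene end that were named by rank had single-sample DMSO folds from 2.99 to 8.45. They lay at UNC93B1, which carries Toll-like receptors to endosomes, PGM2L1, an enzyme of sugar phosphates, FLNA, which encodes the actin cross-linker filamin A, ZNF462, a zinc finger gene, IRX3, a homeobox gene, and SIRT7, a nucleolar deacetylase. ZNF462 and IRX3 were called in all 3 FHT-1015 samples, UNC93B1 and FLNA in 2, SIRT7 in 1 and PGM2L1 in 0.

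**Figure D2:**
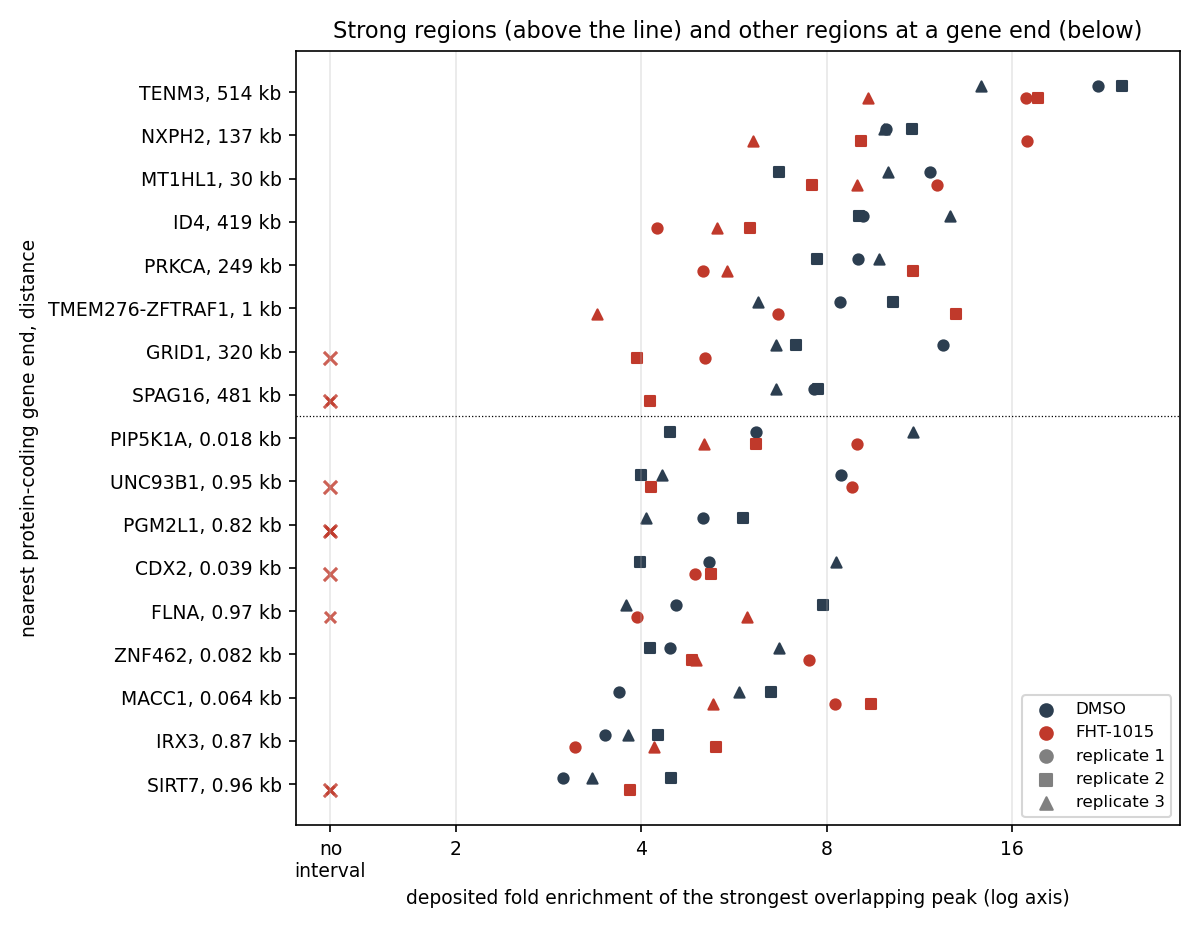
Deposited fold enrichment (log axis) of 8 of the 10 strongest regions and of 9 further regions at a gene end in the 3 DMSO (dark) and 3 FHT-1015 (red) samples of HCT116, named by the nearest gene end and its distance; crosses at the left mark samples with no interval, drawn larger for a higher replicate number and over one another where several lack a call. The MACC1 region has an interval in all 6 samples, and that of PGM2L1 has none after FHT-1015.

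After FHT-1015, 116, 123 and 98 of the 255 regions were called in replicates 1, 2 and 3. No treated sample had a call on 78 regions (30.6%, exact 95% interval 25.0 to 36.6%), beside 5.23% of all 27865 HCT116 segments. All 3 treated samples had a call on 49 regions (19.2%), beside 69.5% of all segments. These intervals cover counting error only. Since the regions had to be called in 3 of 3 DMSO samples, fewer calls in samples outside that choice follow from the rule, and these counts do not measure the effect of FHT-1015.

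The strongest regions without a treated call were led by SEMA3D, which encodes a secreted axon guidance semaphorin, with folds of 7.78, 5.46 and 6.44 inside the gene. A region 3.15 kb from DOCK1, an activator of the small GTPase Rac, had 6.54, 6.43 and 6.16. It was the only one of the 29 regions with strict peaks in all 3 DMSO samples that had no treated call, and 16 of the 29 had a call in every treated sample. All 29 had a percentile of −log10 p above 80 within every DMSO list. Of shared segments with a lowest percentile of 80 to 90, 75.2% were called in every treated sample. Above 90 it was 94.0%. The region at the PPFIBP2 promoter window shown above, which lay inside the gene and 59.3 kb from any gene end, had 8.63, 4.23 and 4.23. Regions inside ATE1, an arginyltransferase, SLIT3, a guidance ligand, CCDC186, a gene of dense-core vesicles, BCL11B, a zinc finger transcription factor, INPP4B, a lipid phosphatase, NEK1, a kinase of cilia and DNA repair, and CDC14A, a phosphatase, had single-sample DMSO folds from 4.41 to 9.35.

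Calls after treatment followed the strength of a region in the DMSO lists. The percentile of −log10 p within each DMSO list was taken, and the lowest of the 3 had a median of 34.8 for regions called in 0 treated samples, 37.9 in 1, 56.5 in 2 and 81.5 in 3. The median width rose from 145 to 195 bp across these classes. Within classes of like strength, the share with no treated call was higher for HCT116-only regions than for shared segments in 4 of 5 classes. Below the 60th percentile 38.6% of 158 regions had none, against 11.8% of 8082 shared segments, and between the 80th and 90th percentile 16.7% of 48 against 2.70% of 6751. Between the 70th and 80th percentile the values were 5.0% of 20 and 5.08% of 2301, but a call in all 3 treated samples was still rarer, at 25% against 60.8%. These classes were chosen after the data were seen and, being made of the same DMSO calls, carry no test.

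**Figure D3:**
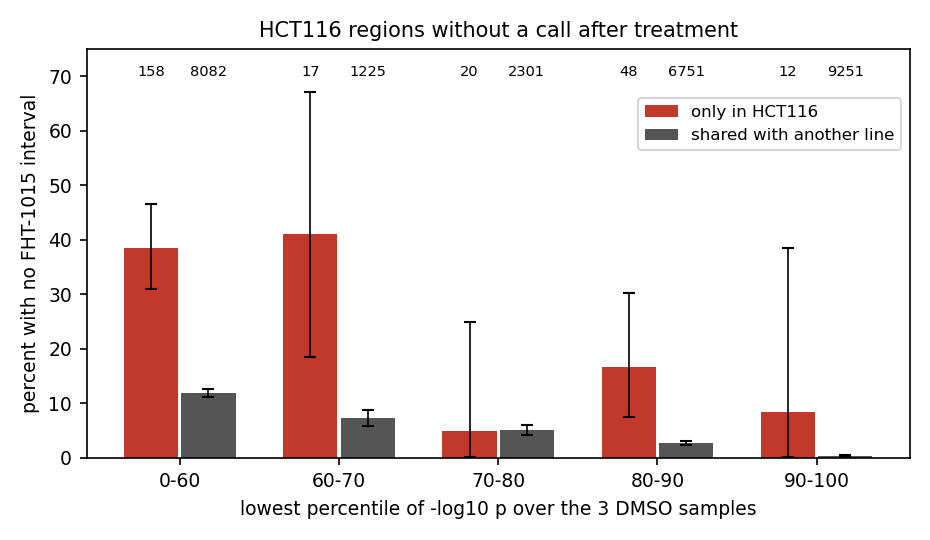
Percent of HCT116 regions with no interval in any of the 3 FHT-1015 samples (bars from 0, with exact 95% binomial intervals) by the lowest within-list percentile of −log10 p over the 3 DMSO samples, for regions only in HCT116 (red) and segments shared with another line (grey). The numbers of regions stand above the bars, and the red bar is the higher except between the 70th and 80th percentile.

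To compare treatments on samples that did not choose the regions, the rule was applied to 2 DMSO samples at a time, and the percent of the chosen regions with a call was taken in the third DMSO sample and in each FHT-1015 sample. This percent is called recall here. The sets held 1245 to 2749 regions. Recall in the left-out DMSO samples 1, 2 and 3 was 10.6%, 23% and 21.5% (18.4 ± 6.74%, SD, n = 3). Recall in FHT-1015 replicates 1, 2 and 3, averaged over the 3 sets, was 11.8%, 14.1% and 15% (13.6 ± 1.66%, SD, n = 3). The groups overlapped, and the difference of 4.74 percentage points was smaller than the SD of the DMSO values (exact permutation test, two-sided, p = 0.4). The smallest p of 3 against 3 samples is 0.1. Each DMSO value came from a different set, whereas each FHT-1015 value was a mean over the 3 sets. The DMSO SD therefore mixes differences between sets with those between samples, and the p values of recall here and below are only a guide. Within the set chosen without DMSO replicate 2, recall was 23% in that sample and 14.1%, 15.9% and 17.0% with FHT-1015. Within the set without replicate 3 it was 21.5% against 13.4%, 15.7% and 15.9%, and within the set without replicate 1 it was 10.6% against 7.86%, 10.6% and 12.1%. The left-out DMSO sample was thus above all treated samples in 2 of 3 sets.

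Low recall in DMSO shows how few of these sites repeated in a further untreated sample. Segments shared with another line repeated far more often, in 76.6 ± 6.29% of cases in DMSO samples and in 71.5 ± 3.24% of cases after FHT-1015 (SD, n = 3 each), a difference of 5.09 percentage points (exact permutation p = 0.3). The drop in HCT116-only regions minus that in shared segments was -0.35 percentage points (exact permutation p = 1). As a ratio, FHT-1015 recall was 74.2% of DMSO recall in HCT116-only regions and 93.4% in shared segments; this ratio was not tested.

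With strict peaks only, the same comparison gave groups that did not overlap. Recall of HCT116-only regions was 55.6%, 54.8% and 61.4% in the left-out DMSO samples and 33.6%, 39.3% and 19.0% with FHT-1015, a difference of 26.6 percentage points (exact permutation p = 0.1, the smallest possible). Shared segments moved by 4.09 percentage points (exact permutation p = 0.7), and the difference between the drops was 22.5 (exact permutation p = 0.1). With every list shortened to its 114291 strongest peaks, recall was 27.9%, 27.2% and 28.9% with DMSO and 23.2%, 23.4% and 14% with FHT-1015, a difference of 7.79 (exact permutation p = 0.1). With full lists, leaving out a DMSO replicate means choosing on 1 sample, which gave sets of 30757 to 91759 regions. The difference was then 1.16, -0.15 and 0.12 percentage points without DMSO replicates 1, 2 and 3 (exact permutation p = 0.5, 0.9 and 1). Of the 244 HCT116-only regions that strict peaks gave, 94 (38.5%) had no strict treated call, beside 5.81% of all 12463 strict segments, and 42 had one in all 3 treated samples, beside 71.1%; these regions too were chosen by their DMSO calls. The lowest treated value with strict peaks was that of replicate 3, the sample with the fewest strict peaks.

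**Figure D4:**
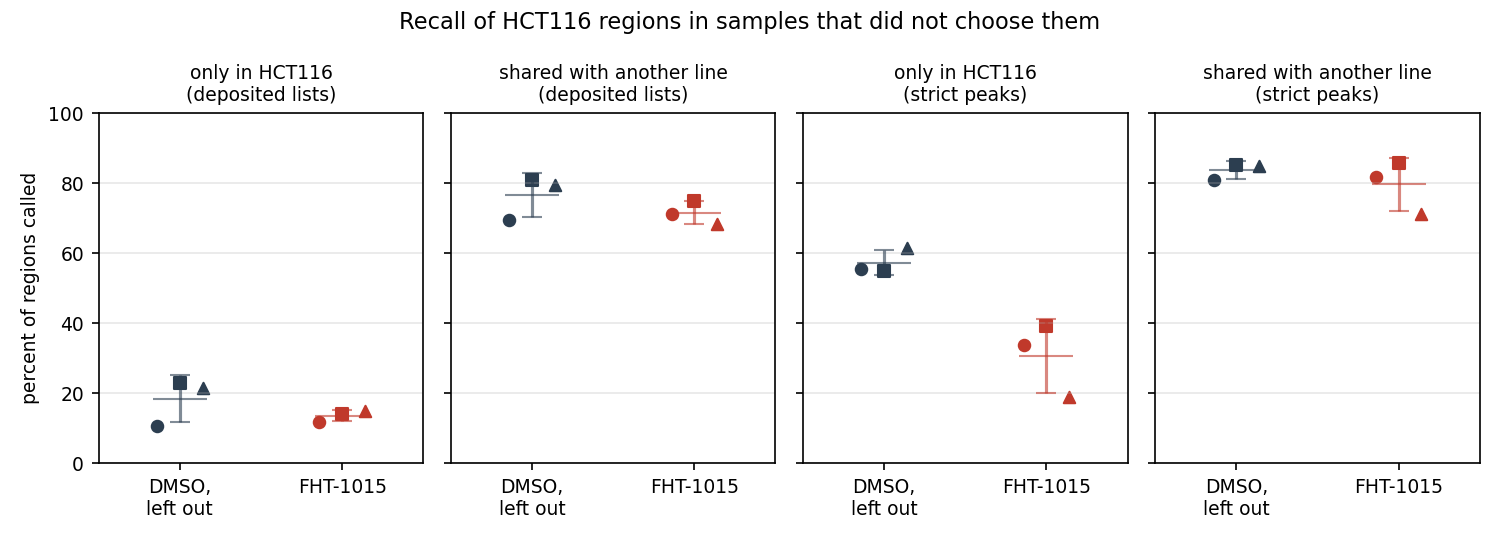
Percent of HCT116 regions called in samples that did not choose them, for the deposited lists (left pair) and strict peaks (right pair); circles, squares and triangles are replicates 1, 2 and 3, and lines are means with SD over 3 samples. With the deposited lists the groups overlap in both kinds of region, and with strict peaks they are apart for the regions only in HCT116 (54.8% to 61.4% against 19.0% to 39.3%).

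The strongest sites of each set held up best. Among regions above the 85th percentile in both choosing samples, recall was 66.1%, 78.9% and 80.4% in the left-out DMSO samples 1, 2 and 3. In the same sets FHT-1015 samples gave 44.6% to 61.6%, 61.4% to 71.9% and 53.6% to 64.3%. Every treated value was below the DMSO value of its set, as it also was for shared segments above the 85th percentile. Below the 70th percentile this did not hold in the set without replicate 1, where DMSO gave 6.81% and FHT-1015 4.86%, 7.51% and 10.2%. The classes above the 85th percentile held 112, 57 and 56 regions in the sets without replicates 1, 2 and 3. The class below the 70th percentile in the set without replicate 1 held 2304. These classes were chosen after the data were seen.

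Line-specific regions of the other lines had a DMSO recall of 37.5% to 82.9%, against 18.4% in HCT116. The FHT-1015 recall was 74.2% of the DMSO recall in HCT116 and 75% in DU4475, then 55.6% in A375, 45.0% in MV411, 42.7% in RD, 37.6% in 22RV1 and 28.1% in 92-1. The drop in HCT116 minus that of the other line was -22.3 percentage points for 92-1, -24.7 for RD, -34.6 for 22RV1 and -40.9 for MV411 (exact permutation of the treatment labels within lines, 400 assignments, Benjamini-Hochberg adjusted p = 0.1275 each). It was -24.2 for A375 (exact permutation, adjusted p = 0.204) and -8.16 for DU4475 (exact permutation, adjusted p = 0.34). None passed the threshold, and a drop in HCT116 could not exceed its own DMSO recall, so the sign of these differences says little about the effect of FHT-1015.

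Some regions were called in treated samples of other lines, which the rule did not use. Between 5 and 40 of the 255 regions (1.96% to 15.7%) were called in each of the 18 FHT-1015 samples of other lines. Of the shared HCT116 segments that likewise had no call in the DMSO samples of the line in question, 5.49% to 23.9% were called, which was the higher share in 17 of the 18 samples (22RV1 replicate 2 was the exception, at 12.9% against 15.7%). The highest were 22RV1 replicates 2 and 1, with 40 and 34, and the lowest was DU4475 replicate 3. Of the 255, 102 (40%) had no call in any of the 18, 77 in exactly 1 and 76 in 2 or more. Of all 27865 HCT116 segments, most of them called in other untreated lines, 98.2% had a call in at least 1. A region inside KCP, a secreted regulator of BMP signals, was called in 11 of the 18, the most of any region.

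All 3 treated samples of another line had a call on 5 regions, and these are named for that. For 22RV1 they were the KCP region, one 246 kb from NR4A3, a nuclear receptor gene, and one 15.4 kb from OBP2B, an odorant-binding protein gene. For A375 it was a region inside SORCS3, a sorting receptor gene, and for MV411 one inside PDGFD, a growth factor gene. The OBP2B region was also called in all 6 HCT116 samples, with folds of 9.66, 4.89 and 6.53 with DMSO and 6.40, 6.12 and 7.27 with FHT-1015. The SORCS3 region had 4.13, 5.38 and 4.03 with DMSO in HCT116 and no call there after FHT-1015. Its nearest interval in an untreated line other than HCT116 was 38 bp away.

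**Figure D5:**
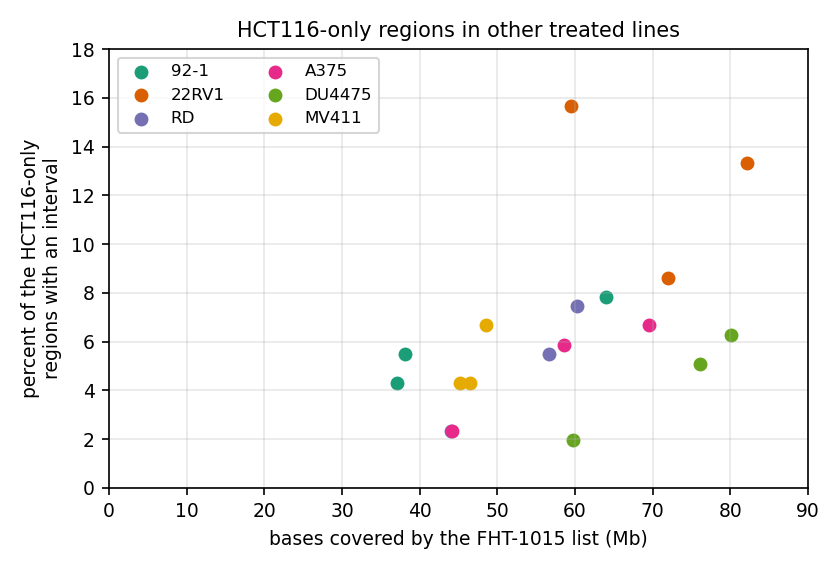
Percent of the 255 HCT116-only regions with an interval in each FHT-1015 sample of the 6 other lines, against the bases that sample's list covers (Mb). The samples lie between 1.96% and 15.7%, and all 3 of 22RV1 are above the other 15 samples.

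The same rule applied to the FHT-1015 lists gave 198 regions open only in treated HCT116, out of 24758 segments. Of these, 17 overlapped a region open only in untreated HCT116, which is 8.59% of the former and 6.67% of the latter. Among the 49 regions called in every HCT116 sample, 18 (36.7%) had no call in any treated sample of another line, beside 40% of all 255 regions. The regions at ID4 and MACC1 were among the 18.

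Of the genes chosen for this tissue, 5 of the lists had 1 or 2 members with a region nearby, counts too small to set apart from all genes. Over all 19970 protein-coding genes, 3.16% had a region inside or within 100 kb. Of 30 intestinal lineage genes 1 did (CDX2), of 20 WNT target genes 1 (NOTUM, a WNT-inactivating enzyme, 39.6 kb away), of 22 epithelial identity genes 1 (CDH1, the adhesion molecule E-cadherin, 86.2 kb) and of 12 YAP and TEAD targets 1 (CRIM1). Of 19 colorectal cancer drivers 2 did, PIK3CA and ERBB2, at 75.8 and 83.8 kb. These distant regions lay in or nearer to other genes. The NOTUM region was the SIRT7 region named above, and the CDH1 region lay inside TANGO6. The PIK3CA region lay 6.985 kb from ZNF639, and the ERBB2 region lay inside NEUROD2, 502 bp from its end. None of 20 gut stem and secretory genes, 11 mesenchymal factors, 12 AP-1 genes, 17 MAPK feedback genes or 10 genes each of the melanocyte, muscle, myeloid, prostate and breast lists had one. Among CDX1, CDX2, HNF4A, KLF5, LGR5, ASCL2, SOX9, VIL1, CDH17, AXIN2 and RNF43, CDX2 was the only gene with a region.

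The CRIM1 region, chr2:36377094-36377357, lay inside this gene of a membrane protein that binds bone morphogenetic proteins. It was among the strict regions, with folds of 7.59, 11.2 and 9.27 with DMSO and 5.32 and 3.52 in FHT-1015 replicates 2 and 3, and no call in replicate 1. The treated folds were below the DMSO values, and the share of regions with such a gap was not counted. The regions near PIK3CA and ERBB2 were weak, with 3.46, 2.31 and 5.64, and 2.59, 3.12 and 3.52 with DMSO, and neither had a treated call. The CDH1 region had 3.46, 6.25 and 6.44 with DMSO and 6.04 and 5.87 in FHT-1015 replicates 1 and 2.

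No gene had more than 2 regions within 100 kb, and 17 genes had 2. IGSF21, an adhesion molecule of synapses, PCDH7, a protocadherin, RPS6KA2, a kinase downstream of ERK, DNMBP, a scaffold that binds dynamin, SPTB, which encodes beta spectrin, and SLC39A11, a zinc transporter, each held both of theirs inside the gene. Of those in PCDH7, one had 8.26, 9.86 and 3.22 with DMSO and 4.03 and 5.15 in FHT-1015 replicates 1 and 2. The 2 in DNMBP had 4.24, 9.55 and 5.64, and 6.98, 3.86 and 6.49 with DMSO, and the second was called in all treated samples at 4.03, 6.45 and 4.14. MTUS1, LRCH1, PLB1 and YPEL5 had 1 or both of theirs outside the gene.

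Only 4 pairs of regions lay within 10 kb of one another. They were the MACC1 pair, a pair 12.6 kb from LBH, a transcription cofactor, a pair 488 kb from NECTIN3, an adhesion molecule, and a pair inside SPTB. In the LBH pair, both regions lay under the same peaks in DMSO replicates 1 and 2 (6.41 and 8.57), and a gap in replicate 3 split them. The LBH regions are thus not independent sites. In the NECTIN3 pair both took the same DMSO values, 5.88, 3.90 and 3.85. Equal folds recur at unrelated regions, such as 3.90 and 3.85 in DMSO replicates 2 and 3 at ADCK1. A gap in some DMSO list must also split the NECTIN3 pair, so equal folds cannot show whether its regions share peaks. No region overlapped a RefSeq miRNA hairpin.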

How the data were processed

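The files are narrowPeak lists, 1 per sample, so replicates were not pooled. Per the submitters' processing notes, Bowtie2, Picard, MACS2, limma and HOMER were used on build hg38 (versions, and any shift of reads for the transposase: not given in the sources used here). In the deposited lists, fold enrichment is a ratio to background, and the authors' p and q values are −log10 transformed. The deposited summit offsets, which count bases from the start of an interval, were used only to pick a nearest summit. The lists hold no read counts, so the depth of a sample is unknown; −log10 p began at about 2 in the HCT116 lists, a lenient threshold, and a deeper sample gives more and smaller calls.

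Intervals of each list were joined, intersected and compared with numpy 2.4.6 and pandas 2.3.3 (Python 3.11.15); an overlap of 1 bp was a call. Exact intervals (Clopper-Pearson, 95%) used scipy 1.17.1, and figures matplotlib 3.10.9. The procedure was tested on simulated lists. Recall in left-out samples was compared by exact permutation of 3 against 3 samples. The DMSO values came from 1 set each and the FHT-1015 values were means over 3 sets, so the labels were not fully exchangeable. Gene ends came from RefSeq (GRCh38.p14, 19970 protein-coding genes), whose table gives no strand, exon or intron here. The members and lists were chosen with earlier results of these data known. The text names the 10 strongest regions by the lowest of 3 DMSO percentiles of −log10 p, the same for regions at gene ends and for those without a treated call, the 10 genes with the most regions, the closest pairs and a set of intestinal key genes; some of these items are not reported here. A planned motif search over all regions was not run, since genome sequence was not used here; promoter sequences and 20 motifs of at most 7 letters were used instead. The main tests did not pair samples by replicate number.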

Additional observations from a re-analysis of the deposited data

How the results depend on the processing

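The 255 regions became 62 with segments of at least 200 bp, 87 with no interval of another line within 500 bp, and 1245 to 2749 when 1 DMSO replicate was left out (255 without an FHT-1015 replicate). Strict peaks gave 244 regions, of which 29 overlapped the 255. The percent near a gene end was 3.77% with −log10 q of at least 2, 3.14% within 500 bp, 20% within 5 kb and 2.36% to 3.26% when a DMSO replicate was left out. The percent with no treated call was 38.5% with strict peaks, 39.6% with an overlap of 100 bp, 11.3% with 200 bp segments and 38.0% to 78.3% when a replicate was left out. The drop in recall kept its direction in all alternatives but one, though leaving out a DMSO replicate also meant choosing regions on 1 sample; leaving out a replicate gave -0.15 (without DMSO replicate 2) to 5.44 percentage points. Its difference from that of shared segments was -0.35 and changed sign with −log10 q of at least 2 (4.14), strict peaks (22.5), equal list lengths (3.45), 200 bp segments (5.44) and the 500 bp distance (0.55). Leaving out a replicate gave -2.64 to 1.90, the highest without FHT-1015 replicate 3. The cause of these changes was not tested. No difference in drop between HCT116 and another line passed the threshold in any of 12 alternatives (Benjamini-Hochberg adjusted p of 0.054 to 0.815 from exact permutations).

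Deviations of same-numbered DMSO and FHT-1015 samples had correlations of -0.07, 0.02 and -0.02, against -0.05 to 0.09 for samples of different numbers. Values this small in both kinds cannot decide whether samples of the same number were handled together. With a replicate block (exact sign flips, smallest p 0.25) the drop of 4.74 percentage points had p = 0.5, and that of 5.09 in shared segments p = 0.5. Within 20 kb of a gene, 244 genes had a region in place of 631, and CDX2 and CRIM1 were the listed ones left.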

Other observations

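Strict peaks selected a largely different set of HCT116-only regions. Of the 244, 178 had some deposited interval in 1 to 3 other untreated lines and 37 in 4 to 6. By the rule, no strict peak of another untreated line overlapped these regions. How strong the intervals of the other lines were was not tested. Chromosome 2 held 30 of the 244 (12.3%, against 8.31% of strict shared segments), chromosome 10 held 29 (11.9% against 4.96%) and chromosome 8 held 20 (8.20% against 5.68%). The lists give no copy number of a chromosome, and the cause of these shares was not tested. The strongest lay inside AFAP1L2, an adaptor gene, at chr10:114320730-114321111, with folds of 24.7, 13.8 and 15.9 with DMSO and 8.14, 7.32 and 7.23 with FHT-1015. Others on chromosome 10 lay inside RGS10, a regulator of G protein signals (17.9, 12.3 and 14.4 with DMSO against 3.6, 8.99 and 7.37), HTRA1, a secreted protease (13.9, 13.2 and 12.7 against 6.63, 5.63 and 3.99), and ACSL5, an acyl-CoA synthetase of the intestine (13.9, 10.7 and 10.7 against 5.35, 7.73 and 4.69). In these 4 every treated value was below every DMSO value, but the share of the 244 with such a gap was not counted. In other strong strict regions the groups overlapped. One inside PFKFB3 on chromosome 10 had 13.3, 11.6 and 10.6 with DMSO and 10.8, 10.3 and 5.73 with FHT-1015. One 28.4 kb from LMLN had 24.3, 15.2 and 17.6 with DMSO and 18.3, 18.2 and 9.86 with FHT-1015. The region inside ELOVL2, an elongase of fatty acids, had 13.5, 12.1 and 12.7 with DMSO and 12.4, 11.9 and 10.7 with FHT-1015, which overlapped. These regions were chosen on DMSO calls and named after their values were seen, so no test is given.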
